A study of Mus musculus with 31 samples.

Results

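Liver gene expression was compared between total ChREBP-KO mice, which lack both isoforms of the transcription factor ChREBP because its gene Mlxipl is inactivated, and their WT littermates. The samples were chosen by the genotype in their labels and made up 15 of the 31 arrays of the series, 7 of total ChREBP-KO and 8 of WT mice. By the labels each array held liver RNA of 1 mouse, labelled with a single dye, and each gene was read by 1 or more short probes. Both groups were male C57BL6/J mice from several litters, kept on chow, fasted for 24 hours and then refed for 18 hours with food and with 20% glucose in the drinking water, and their age was not given in the sources used here. The knockout is present in the whole animal, so every cell type of the liver and every other organ carries it. The 31 arrays held no total ChREBP-KO replicate 3. The other line of the series, which lacks the isoform ChREBPβ alone, had 8 knockout and 8 WT arrays and is used where the effects in the lines are set against each other, in fits of all 4 groups together and in the comparison of replicate arrays.
Values are log2 levels from the normalized table that the authors deposited, so a difference of 1 is a 2-fold change. Differences are KO minus WT. The arrays of WT replicates 7 and 8 differed by less than the spread between replicate spots of an array and were counted as 1 sample. Whether they came from 1 mouse could not be settled. Of 9068 bright probes only 3 differed by more than 0.5 between them, while every other pair within a group of the series had at least 102 such probes. The comparison therefore had 7 KO and 7 WT samples. On each array 62.3% to 69.5% of spots were well above background, and the number of mice limits the precision of each value.

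ChREBP is the glucose-responsive transcription factor of liver and fat. It binds DNA together with its partner MLX at paired E-box-like motifs, and it is known for raising the enzymes that turn glucose and fructose into fatty acids after a carbohydrate meal. Liver is also the organ of bile acid synthesis, ketone production, detoxification by cytochrome P450 enzymes and secretion of plasma proteins.
All 22 genes of a liver identity list were measured in both groups, among them Alb, the serum albumin gene. Of these 4 rose and 4 fell (36.4% called, beside 23.9% of all genes), with differences down to -4.72 for G6pc. Without WT replicate 1 or 4, 2 were higher, and without KO replicate 6 and WT replicates 2 and 5, 1 was lower. The sum of their levels on a linear scale, after quantile normalization, was 4039850 to 4215490 in KO mice (median 4145620) and 3971130 to 4266610 in WT littermates (median 4095220), and these ranges overlapped. Alb stood at the same level, 18.96, in every sample of the quantile normalized values, so a difference in Alb could not be seen there.

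Mlxipl, the targeted gene, was examined first. Its brightest probe lies on chromosome 5 at 135613705 to 135613764 of mouse build mm9. The log2 level was 13.90, 14.13 and 14.28 (lowest, median and highest) in KO mice and 15.11, 15.28 and 15.55 in WT littermates. All 7 KO mice lay below all 7 WT samples, at -1.15 (limma adjusted p = 1.73e-07, standard error 0.08), and the exact permutation p was 0.000583, the smallest that these groups allow. The probe stayed well above background in every KO mouse. A second probe, with segments between 135598483 and 135599113, differed by -0.61 (adjusted p = 0.00435, exact permutation p = 0.00291), and its groups overlapped. A further probe, at 135614195 to 135614252, read 10.81, 10.91 and 11.10 in KO mice against 10.90, 10.93 and 11.08 in WT littermates (difference -0.04, adjusted p = 0.679). The sources used here do not say which exons were removed in this line, and a probe outside the deleted part checks nothing.
On the 4 slides that held both a KO and a WT array, the brightest Mlxipl probe differed by -1.29 to -0.92, and with slide as a fixed term by -1.07 (adjusted p = 0.00716).

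Loss of ChREBP moved many liver genes by small amounts and few by large ones. Of 23968 genes tested, 2775 rose (11.6%) and 2952 fell (12.3%) at a limma adjusted p under 0.05, together 5727 genes or 23.9%, and 18241 did not pass. The median difference was 0.01 over all genes, 0.36 over the genes that rose and -0.39 over those that fell. A change of at least 1.5-fold was seen in 647 higher and 847 lower genes, of at least 2-fold in 212 and 269, of at least 4-fold in 18 and 70, and of at least 8-fold in 6 and 30. The largest changes were therefore mostly decreases.
For 888 genes (3.70%) every KO mouse lay above every WT sample, and 881 of these were called. For 1098 genes (4.58%) every KO mouse lay below, and 1092 were called. These percentages of all genes are the background against which the counts of gene groups below are read. Of 4516 genes in the 95 lists followed, 243 are in several, so the lists are not independent of each other. The 23968 names include 15762 with the form of a gene symbol, and 1480 of the 5727 called names lack that form. The share called is therefore higher among symbol-named genes than over all names. Apart from probes named by position, the lists below hold mainly symbol-named genes. Shares over all names thus understate the background for these lists. The first principal component carried 40.3% of the variance and separated the groups, with scores of 25.4 to 41.2 in KO mice and -47.8 to -20.3 in WT samples. RNA came from bulk liver, in which fewer cells of a type and less RNA per cell cannot be told apart.

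**Figure D1:**
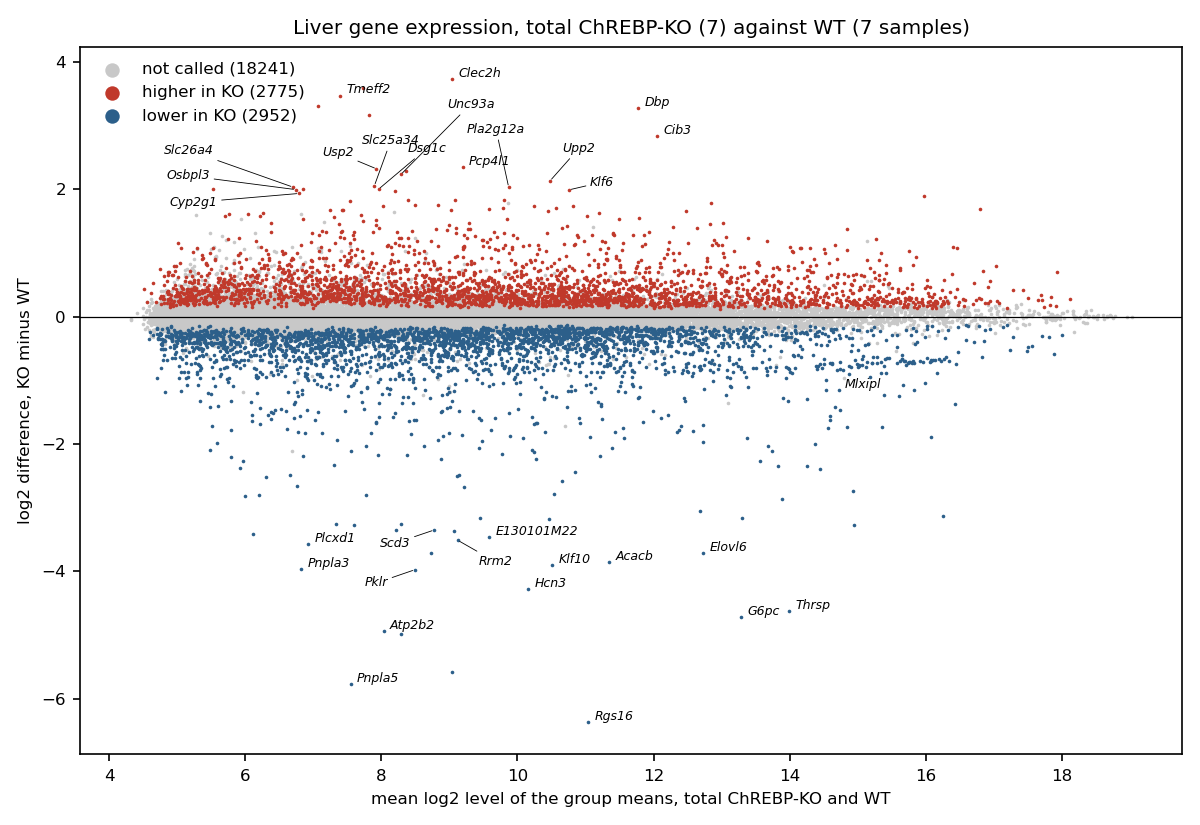
Difference between total ChREBP-KO (7 mice) and WT (7 samples) liver for 23968 genes, plotted against the mean log2 level of both groups. Red points are the 2775 higher genes, blue points the 2952 lower genes and grey points the 18241 not called, and the decreases reach -6.37 (Rgs16) while the increases reach 3.73 (Clec2h).

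The leading genes were ranked among those with a gene symbol whose KO and WT samples did not overlap, so their separation is part of the choice. Rgs16, a regulator of G-protein signaling that shortens the signal of activated receptors, was well above background in every KO mouse. Its log2 level was 6.07, 8.02 and 9.41 in KO mice and 12.36, 14.39 and 15.50 in WT littermates, lower by 82.5-fold (log2 difference -6.37, adjusted p = 5.08e-07, standard error 0.48). The highest KO mouse was almost 3 log2 units below the lowest WT sample. Atp2b2, a calcium pump of the plasma membrane, read 5.08, 5.46 and 6.48 in KO mice against 9.38, 10.70 and 11.40 (difference -4.94, adjusted p = 9.38e-08). Pnpla5 and Pnpla3, lipases of the patatin-like family that act on lipid droplets, changed by -5.77 and -3.96, and they were well above background in 3 and 4 of the 7 KO mice, so the size of their falls depends on the background.
G6pc encodes the catalytic subunit of glucose-6-phosphatase, the last step of glucose release. It had the widest spread among KO mice of these genes, with 9.11, 10.40 and 13.61 in KO mice and 14.13, 15.76 and 16.32 in WT littermates (difference -4.72, standard error 0.62, adjusted p = 6.04e-05). Thrsp, a nuclear protein tied to lipogenesis, fell by 4.62. Pklr, which encodes the liver pyruvate kinase at the end of glycolysis, read 6.13, 6.51 and 6.74 in KO mice and 9.23, 10.68 and 11.24 in WT littermates (difference -3.98, adjusted p = 2.62e-07). Hcn3, a pacemaker-type ion channel gene that neighbours Pklr on chromosome 3, read 7.75, 8.05 and 8.26 against 11.22, 12.41 and 13.04 (difference -4.28, adjusted p = 9.38e-08). For both probes the groups lay far apart, with narrow ranges among KO mice. The Hcn3 probe lies at 88950072 to 88950131 and the Pklr probe within 88948907 to 88949425 of build mm9. Whether the Hcn3 probe also reads Pklr transcripts was not tested.
Klf10, a Krüppel-like repressor that responds to glucose, fell by 3.90 (adjusted p = 9.38e-08), from 11.41, 12.29 and 13.42 in WT littermates to 8.41, 8.61 and 8.73. Acacb, the acetyl-CoA carboxylase that makes malonyl-CoA at the mitochondrial surface, fell by 3.85 for its brightest probe (adjusted p = 2.27e-06), while its other probes gave -0.03 (not called) and -0.18. Elovl6, an elongase of long saturated fatty acids, fell by 3.72, Plcxd1, a phospholipase-domain gene, changed by -3.58 and Scd3, a fatty acid desaturase, by -3.35. A second Scd3 probe of nearly the same mean level over the samples (8.78, beside 8.77) gave -0.08 and was not called. The rank of Scd3 thus depends on which probe is used. E130101M22, a transcript without a known role, fell by 3.47. Further probes that passed gave smaller falls, at -2.46 for Pnpla5, -2.17 for Pnpla3, -3.02 for Atp2b2 and -1.47 for Plcxd1. Those of Hcn3, with low mean log2 levels of 4.92 and 4.63, gave -0.54 and -0.74, while that of Thrsp gave -4.78. Rrm2, the small subunit of ribonucleotide reductase that supplies building blocks of DNA, fell by 3.51 (adjusted p = 1.56e-07), from 10.14, 10.93 and 11.69 to 7.03, 7.37 and 7.75.
Several genes were not well above background on any KO array, so only a bound on their fall can be given. The bound sets the WT mean against the mean, over KO arrays, of the higher of the gene's own signal and the lowest signal among probes well above background. Serpina12, the secreted serpin vaspin, fell at least 9.22-fold, Ttbk1, a tau tubulin kinase, at least 6.68-fold and Ttc25, a protein of ciliary dynein docking, at least 3.20-fold. Pbx4 was at least 2.02-fold lower, Obp2a at least 1.74-fold and the olfactory receptor gene Olfr1474 at least 1.47-fold.

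The leading increases came from several functions, and Dbp, Usp2 and Upp2 among them are clock outputs. Clec2h, a C-type lectin-related surface protein, read 9.70, 11.16 and 11.48 in KO mice and 5.54, 7.32 and 8.32 in WT littermates, higher by 13.3-fold (log2 difference 3.73, adjusted p = 3.42e-06, standard error 0.36). Tmeff2, a transmembrane protein with follistatin domains, read 8.27, 9.31 and 9.76 against 4.54, 5.57 and 6.73 (difference 3.47, adjusted p = 1.70e-06). Dbp, a PAR-domain transcription factor that the circadian clock drives, read 12.22, 13.54 and 14.08 against 9.04, 10.09 and 10.95 (difference 3.28, adjusted p = 4.61e-06). In each of the 3 genes the lowest KO mouse was more than 1 log2 unit above the highest WT sample.
Cib3, a calcium-binding protein, rose by 2.84 (adjusted p = 4.35e-05), with 12.91 to 14.14 in KO mice and 8.76 to 11.71 in WT littermates. Pcp4l1, a small calmodulin-regulating protein, rose by 2.35, and Usp2, a ubiquitin protease with a circadian rhythm, by 2.32 (adjusted p = 3.28e-07). Upp2, the liver uridine phosphorylase, rose by 2.14, and all 4 of its probes were called, at 1.69 to 2.40. Klf6, a Krüppel-like factor, read 11.47, 11.73 and 12.10 in KO mice against 9.34, 9.77 and 10.36 (difference 1.99, adjusted p = 3.13e-07).
Among transport genes, Unc93a rose by 2.23, the mitochondrial carrier Slc25a34 by 2.06 for its brightest probe (0.06 and not called for the other) and the anion exchanger Slc26a4 by 2.04. Slc26a4 had the smallest adjusted p of these genes (4.90e-09), at 7.47, 7.70 and 7.96 in KO mice and 5.32, 5.72 and 5.92 in WT littermates. Pla2g12a, a secreted phospholipase A2, rose by 2.04, and the P450 enzyme Cyp2g1 by 1.93. The desmoglein Dsg1c rose 4.01-fold and the oxysterol-binding protein Osbpl3 3.99-fold. Further probes that passed gave smaller log2 rises, at 0.76 for Pcp4l1, 1.34 for Cib3, 0.56 for Dsg1c and 0.93 for Osbpl3. Those of Dbp and Usp2 gave 3.13 and 2.21. Genes not well above background on any WT array were at least 2.01-fold higher (Esco2, a cohesin acetyltransferase), 1.65-fold (Lrrc39), 1.52-fold (Siglecf) and 1.44-fold (Hao2, a peroxisomal hydroxyacid oxidase, well above background in 6 of 7 KO mice).

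**Figure D2:**
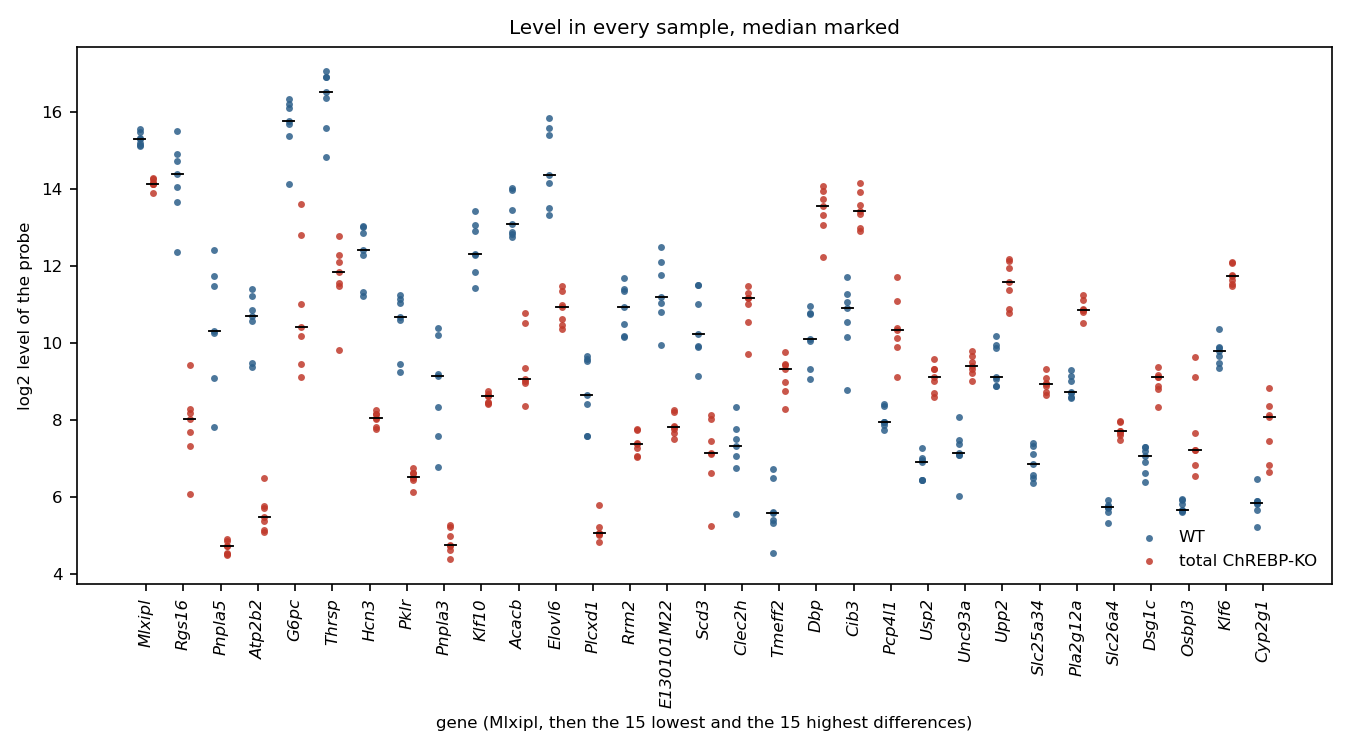
Log2 level of the brightest probe in each total ChREBP-KO mouse (red) and WT sample (blue) for Mlxipl and for the 15 named genes with the lowest and the 15 with the highest differences, with the group median marked. The 30 genes were chosen among those without overlap, and Rgs16 spans 6.07 to 9.41 in KO mice and 12.36 to 15.50 in WT littermates.

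A list of 27 known ChREBP targets moved nearly as a block. Of its members 24 fell and none rose, beside 12.3% and 11.6% of all genes, the median was -2.11, and 19 genes had every KO mouse below every WT sample. Tkfc, the triose kinase that lets fructose carbons enter glycolysis, fell by 2.87 (adjusted p = 1.54e-08). Mid1ip1, a partner of Thrsp that polymerizes acetyl-CoA carboxylase, fell by 2.11. Txnip, an arrestin-like protein induced by glucose, fell by 1.28 (adjusted p = 0.00028).
Several genes of fructose and glucose handling fell, and others did not pass or rose. Of 8 fructose and sorbitol genes 4 fell and 2 rose (median -0.31), with 1 higher without the 3 arrays highest in Cfd, an adipocyte transcript (KO replicate 6 and WT replicates 2 and 5). Of 16 genes of glucose entry and release 6 fell and 1 rose, and 3 rose without these arrays or without WT replicates 2, 7 and 8. Khk, the fructokinase, read 14.86, 15.07 and 15.30 in KO mice and 16.25, 17.12 and 17.47 in WT littermates, a difference of -1.89 (adjusted p = 1.92e-06). Slc2a2, the main glucose and fructose carrier of hepatocytes, fell by 2.78 (adjusted p = 2.31e-05), and Slc37a4, the carrier that brings glucose-6-phosphate to G6pc, by 2.01 (adjusted p = 1.28e-08). Of 10 genes of the glucose transporter family, 4 fell and none rose. Slc2a4, the insulin-responsive carrier best known from muscle and fat, fell by 3.28. Sord, which makes fructose from sorbitol, rose by 0.57 (adjusted p = 5.50e-05). Fbp1, the gluconeogenic fructose bisphosphatase, fell by 1.37.
In glycolysis and pyruvate use 8 of 35 genes fell and 5 rose. The median was -0.01, and its sign changes with the scaling of the arrays. The falls included Gpi1 (-1.73), the isomerase of glucose-6-phosphate, Eno1 (-0.88), an enolase, Pdhb (-1.46), a subunit of pyruvate dehydrogenase, and Pdk1 (-1.89), a kinase that switches that complex off. Gapdh, often used as a reference gene, fell by 0.46 for its brightest probe (adjusted p = 2.47e-05), and all 7 of its probes lay between -0.78 and -0.46.
The pentose phosphate pathway, which makes NADPH and ribose, had 9 of 12 genes lower and 1 higher, with a median of -0.35. Rpia, the ribose-5-phosphate isomerase, fell by 2.17 (adjusted p = 5.07e-07) and Pgd, the second NADPH-producing enzyme, fell by 1.81, and neither overlapped between groups. Tkt, a transketolase, fell by 0.80, and G6pdx, the first enzyme of the pathway, by 0.79 (adjusted p = 0.0163), both with overlap.
Of 22 glycogen genes 7 fell and 4 rose, with a median of -0.10 that was negative in 8 of 9 values within slides or scan days or with them in the fit. Pygl, the liver glycogen phosphorylase, fell by 1.23 (adjusted p = 5.03e-07). Gbe1, the branching enzyme, fell by 0.79, Ugp2, which makes UDP-glucose, by 0.67 and Gys2, the liver glycogen synthase, by 0.61, each with overlapping groups. Without the 3 arrays highest in Cfd 2 glycogen genes were higher in place of 4.

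Fatty acid synthesis had 15 of 31 genes lower and 1 higher, with a median of -0.26. Fasn, the fatty acid synthase, fell by 3.13 (adjusted p = 5.18e-08), Acly, which makes cytosolic acetyl-CoA from citrate, by 2.73, Me1, a malic enzyme that supplies NADPH, changed by -3.16 and Elovl5, an elongase of unsaturated fatty acids, by -1.91. Scd1, the stearoyl-CoA desaturase, fell by 3.28 (adjusted p = 0.000176).
Triglyceride and lipid droplet genes moved both ways, with 11 of 39 higher, 12 lower and a median of -0.07. Without KO replicate 1, WT replicate 1 or WT replicate 3 the number of higher genes was 7. Gpd2, the mitochondrial glycerol-3-phosphate dehydrogenase, fell by 2.10, Gpam, the first acyltransferase of glycerolipid synthesis, by 1.56, and Lpin1, the phosphatidate phosphatase, fell by 3.18 (adjusted p = 2.03e-07). Gyk, the glycerol kinase, rose by 1.28 (adjusted p = 8.00e-07). Agpat9, a glycerol-3-phosphate acyltransferase, rose 2.14-fold and Fitm1, a droplet-forming protein, by 1.19 on the log2 scale, both with overlap. Of 7 patatin-like lipases 3 fell and 2 rose (median 0.05). Besides Pnpla5 and Pnpla3, Pnpla7 fell by 1.11. Of 7 fatty acid binding proteins 2 fell and none rose, and Fabp5 was lower by a log2 difference of -1.78 with overlapping groups.
In 32 lipoprotein genes, 4 rose and 6 fell, and the median was 0.05, with a sign that depends on the scaling. Vldlr, a receptor for triglyceride-rich particles, rose by 1.68 (adjusted p = 2.31e-06). Apoa4, an apolipoprotein, fell by 2.34 (adjusted p = 0.0134) with overlap. It differed by -1.89 without WT replicates 2, 7 and 8 (adjusted p = 0.0563) and by -1.98 without the 3 arrays highest in Cfd (adjusted p = 0.0659), and did not pass with slide as a fixed term (adjusted p = 0.102) or within scan day 2 (adjusted p = 0.292). Cholesterol synthesis and uptake had 5 of 30 genes higher and 5 lower, with a median of 0.01. The number of higher genes was 3 without any 1 of KO replicates 1, 2 and 4 and WT replicates 1, 3 and 6, and that of lower genes was 3 without the 3 arrays highest in Cfd.

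Many genes of fat burning rose. Of 28 genes of mitochondrial beta-oxidation and ketone metabolism 17 rose and none fell, with a median of 0.24. Cpt1a, the gate for long-chain fatty acids into mitochondria, read 13.48, 13.68 and 14.07 in KO mice and 11.90, 12.89 and 13.33 in WT littermates (difference 1.04, adjusted p = 0.000794), and the groups were separate. Acadm, a medium-chain acyl-CoA dehydrogenase, rose by 0.48 (adjusted p = 2.22e-05), Eci2, an enoyl-CoA isomerase, by 0.64 and Oxct1, which lets tissues use ketone bodies, by 0.84. In peroxisomes 14 of 44 genes rose and 1 fell (median 0.12), and of 13 acyl-CoA thioesterases 7 rose and none fell (median 0.26), of which 4 were called without KO replicate 1 or WT replicate 4.
Targets of PPARα, the fasting-activated nuclear receptor of fatty acid oxidation, had 20 of 31 genes higher and 3 lower, with a median of 0.59. The median stayed 0.59 with scan day in the fit, as it must when each day holds as many KO as WT samples. It was 0.78 and 0.11 within scan days 1 and 2 and 0.77, 0.69, 0.13 and 0.01 on the 4 slides that hold both groups. No test of a difference between days or slides was run. Without the 3 arrays highest in Cfd the number of higher genes was 13. Ppara itself rose by 0.72 (adjusted p = 0.00033). Cyp4a10 and Cyp4a31, omega-hydroxylases of fatty acids, rose by 1.22 and 1.08. Acot1, a cytosolic thioesterase, rose by 1.43, Ehhadh, a peroxisomal beta-oxidation enzyme, by 1.21 and Cd36, a fatty acid carrier, by 0.92, these 3 with overlapping groups. Family 4 of the cytochromes P450 had 9 of 16 genes higher and none lower (median 0.24), and 5 were higher without the same 3 arrays.
Many genes of the respiratory chain rose by small amounts. Of 37 genes of complex I 23 rose and 1 fell, with a median of 0.16, and in 15 of them every KO mouse lay above every WT sample. In complexes II and III 7 of 13 genes rose (median 0.15), in complex IV 10 of 16 (median 0.25) and in complex V, the ATP synthase, 12 of 18 (median 0.16), and none of these fell. Examples are Ndufb2 at 0.30 (adjusted p = 0.000534), Uqcr11 at 0.35, Cox6b1 at 0.31 and Atp5g3 at 0.28, all small subunits. The exception was Ndufa8, a complex I subunit, which read 12.70, 12.78 and 12.95 in KO mice and 13.12, 13.61 and 13.71 in WT littermates (difference -0.75, adjusted p = 1.09e-05). Leaving out the 3 arrays highest in Cfd gave 15 higher genes in complex I and 3 in complexes II and III, and leaving out WT replicate 3 or 4 gave 4 in the latter. The TCA cycle list had 4 of 23 genes higher and 5 lower, and the sign of its median (0.04) depends on the scaling.

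**Figure D3:**
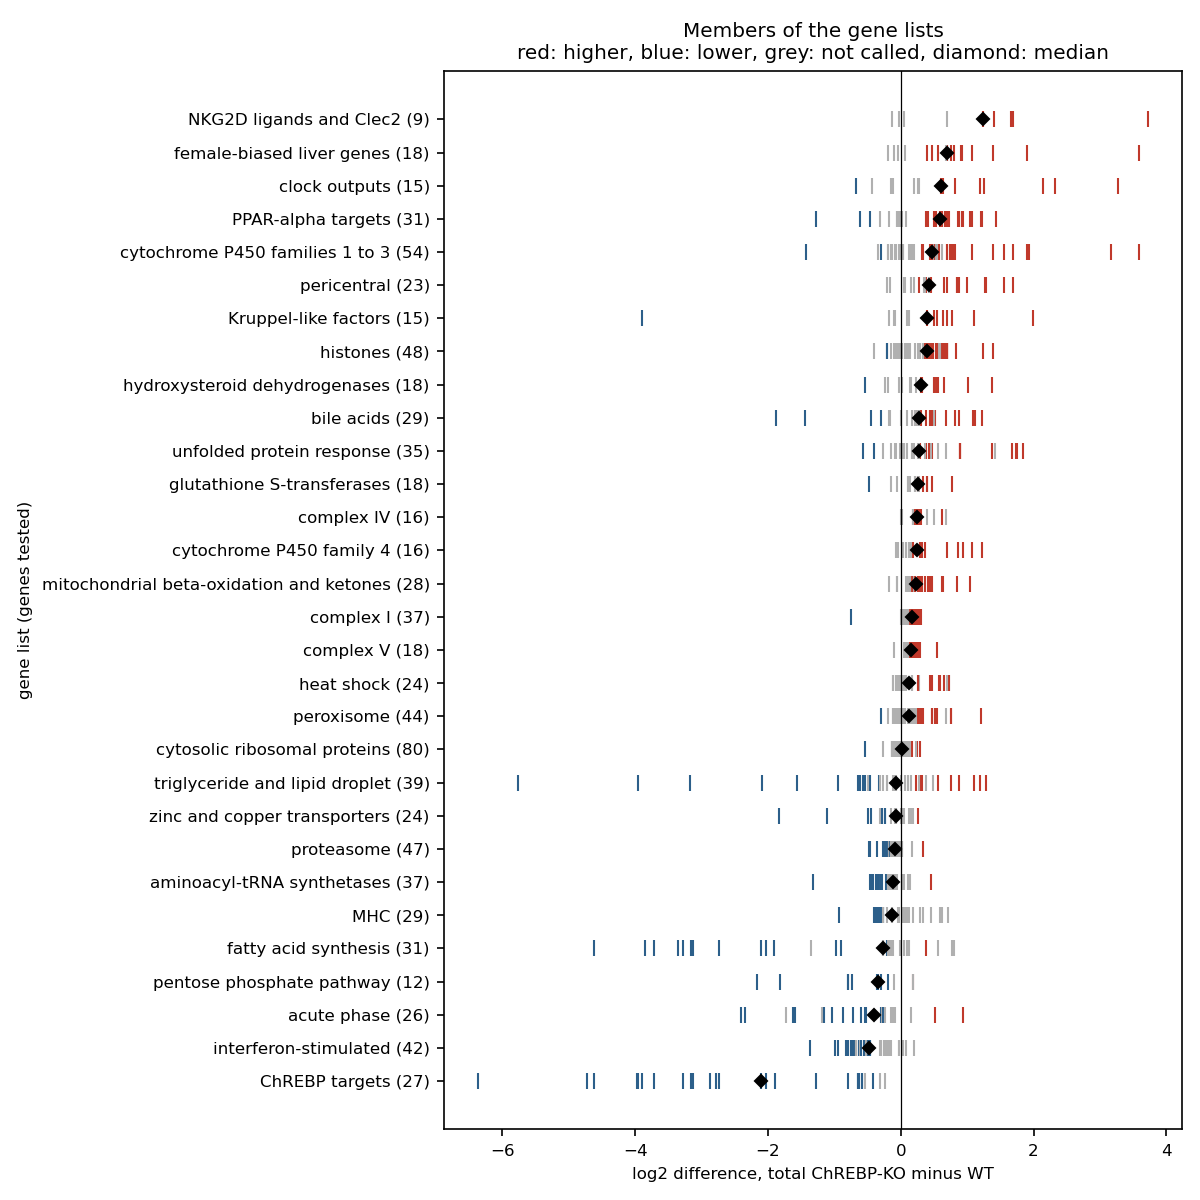
Log2 difference (total ChREBP-KO minus WT) of each member of 30 gene lists, with the number of genes tested beside each name. Red ticks are genes called higher, blue ticks called lower, grey ticks not called and diamonds the median, which runs from -2.11 for ChREBP targets to 1.25 for NKG2D ligands and Clec2 genes.

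Amino acid genes moved in both directions. Breakdown of the branched-chain amino acids had 9 of 23 genes higher and 3 lower (median 0.21). Ivd, the isovaleryl-CoA dehydrogenase of leucine breakdown, rose by 0.78 (adjusted p = 6.84e-05), and Bckdk, the kinase that inhibits the branched-chain ketoacid dehydrogenase, fell by 0.60 (adjusted p = 0.000188). Of 50 other enzymes of amino acid metabolism 17 rose and 10 fell. Oat, the ornithine aminotransferase, rose by 0.84 and Tdo2, the first enzyme of tryptophan breakdown, passed as well (adjusted p = 0.000442), while Aspg, an asparaginase, fell by 1.30 and Got1, the cytosolic aspartate aminotransferase, by 0.86. Aldh18a1, which starts proline synthesis, fell by 1.19 with overlap. Cth, the cystathionine lyase that makes cysteine, rose by 1.04 with overlap. In the methionine and one-carbon list 6 of 27 genes rose and 1 fell (25.9% called, near the 23.9% of all genes). The urea cycle had 2 of 13 genes higher and none lower (15.4% called).
Amino acid carriers had 5 of 46 genes higher and 5 lower (21.7% called, near the 23.9% of all genes). The number lower fell to 2 or 3 without any 1 of KO replicates 1, 2, 4, 5, 6 and 8 or WT replicates 1, 3, 4 and 6. The carriers Slc1a2 and Slc38a4 rose by 1.28 (adjusted p = 7.03e-06) and 0.89, and Slc7a7 fell by 0.97. Of 37 aminoacyl-tRNA synthetases, which load amino acids onto tRNA, 12 fell and 1 rose (median -0.12), led by Tars at -1.32 (adjusted p = 1.15e-06).

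Among detoxification and bile acid genes more rose than fell. The cytochrome P450 families 1 to 3 had 25 of 54 genes higher and 2 lower, with a median of 0.47. Cyp2a4 and Cyp2a5, close relatives that hydroxylate steroids and coumarin and whose probes may read each other's transcripts, rose by 1.90 and 1.70, and Cyp2a22 by 1.39. Cyp1a2, the caffeine-oxidizing enzyme, rose by 1.55, and Ahr, the receptor that drives it, by 1.29 (adjusted p = 0.000145). Cyp2e1, among the brightest genes of the array, rose by 0.70 (adjusted p = 8.52e-06), while Cyp2d40 fell by 1.43. Cyp2b9 and Cyp2b10, targets of the receptor CAR, varied widely among KO mice. Cyp2b9 read 5.98, 9.90 and 11.31 in KO mice and 4.85, 5.68 and 6.90 in WT littermates (difference 3.59, standard error 0.65, adjusted p = 0.000943), and Cyp2b10 read 6.18, 9.61 and 11.02 against 5.12, 5.84 and 7.40 (difference 3.17, adjusted p = 0.0015). Both overlapped between groups. Nr1i3, the gene of CAR, rose by 1.19 (adjusted p = 0.000148), and Por, which passes electrons to all microsomal P450 enzymes, by 0.82 with overlap.
Other enzyme families of this kind rose in part. The higher and lower genes were 6 and 1 of 14 UDP-glucuronosyltransferases (median 0.22), 7 and 1 of 18 glutathione S-transferases (0.26), 9 and 1 of 18 hydroxysteroid dehydrogenases (0.31), 6 and 1 of 19 aldehyde dehydrogenases (0.14), 4 and 0 of 14 aldo-keto reductases (0.24) and 3 and 0 of 4 flavin monooxygenases (0.38). Without the 3 arrays highest in Cfd, 3 glucuronosyltransferases and 2 aldo-keto reductases were higher. Without any 1 of KO replicates 2 and 4 and WT replicates 3, 4 and 5, 4 glutathione S-transferases were higher. Of 11 sulfotransferases 3 rose and 1 fell (median 0.40), and Sult5a1 was at -1.63. Of 28 organic anion and cation carriers 12 rose and 2 fell (median 0.24), with Slc22a15 at 1.24 and Slc22a7, a hepatocyte uptake carrier, at -2.19 (adjusted p = 0.000232).
Bile acid genes had 13 of 29 higher and 4 lower, with a median of 0.28. Cyp8b1, the sterol 12-hydroxylase that sets the share of cholic acid, fell from 9.30, 11.15 and 11.37 in WT littermates to 8.30, 8.95 and 9.44 (difference -1.88, adjusted p = 0.000218), and 1 WT sample, replicate 2, lay within the KO range. Cyp7a1, the first enzyme of the pathway, rose by 1.08 (adjusted p = 0.0191) with overlap, and did not pass when all 4 groups were fitted together (adjusted p = 0.0786). Abcc3, an exporter toward the blood, rose by 1.23 (adjusted p = 8.30e-05), Slco1a4, an uptake carrier, by 1.11 with overlap, and Slc51b, a subunit of the basolateral bile acid carrier, fell by 1.45.
Retinol genes had 9 of 28 higher and 2 lower (median 0.10), with Rdh9, a retinol and steroid dehydrogenase, at 1.78 (adjusted p = 1.39e-05). Of 18 genes that are usually higher in female than in male mouse liver 13 rose and none fell, with a median of 0.70, although all mice were male. The 19 male-biased genes had 3 higher and 3 lower, with 5 lower without WT replicate 2 and 1 higher without the 3 arrays highest in Cfd, while none of 11 major urinary protein genes was called. Among 23 genes typical of hepatocytes around the central vein 13 rose and none fell (median 0.43), and among 21 periportal genes 3 rose and 4 fell (median -0.07), of which 2 lower genes were called without the 3 arrays highest in Cfd or without WT replicates 2, 7 and 8.

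Clock genes changed in both directions. Among 17 core clock genes 6 rose and 5 fell. Arntl, the activator BMAL1, read 8.04, 8.20 and 8.67 in KO mice and 9.46, 9.67 and 10.11 in WT littermates (difference -1.42, adjusted p = 1.09e-06). Its partner Npas2 fell by 0.87, and was well above background in 5 of 7 KO mice, and Bhlhe40, a repressor, fell by 2.07 (adjusted p = 4.00e-06). Among other repressors Per1 rose by 1.62, Per3 by 1.45, Ciart by 1.23 and Nr1d1, which represses Arntl, by 1.21 (adjusted p = 5.39e-06). Of 15 clock output genes 8 rose and 1 fell, with a median of 0.61, and Tef, a relative of Dbp, rose by 1.26 (adjusted p = 1.79e-05). The authors give around 8 am for blood sampling and a light phase from 8 am to 8 pm, and the hour at which livers were taken is not stated in the sources used here.
Krüppel-like factors had 8 of 15 genes higher and 1 lower (median 0.40), the lower one being Klf10. Klf9 rose by 0.77 (adjusted p = 2.02e-05), Klf15 by 0.70 and Klf4 2.14-fold, the last 2 with overlap. Among 45 nuclear receptor genes 10 rose and 7 fell (median 0.09). Ppard, the relative of Ppara, fell by 1.96 (adjusted p = 1.15e-06), Esr1, the estrogen receptor, by 1.04 with overlap and Rxrg by 0.73.
In the MLX and MAX network, the family of E-box binding factors to which ChREBP belongs, 4 of 14 genes rose and 5 fell, with a median of 0.04. Mycl read 4.77, 5.05 and 5.39 in KO mice and 7.23, 7.60 and 7.97 in WT littermates (difference -2.52, adjusted p = 7.08e-09), without overlap. Mycn fell by 2.33 (adjusted p = 5.95e-07), and Mxd1, a MAX partner that represses, rose by 1.28. Without the 3 arrays highest in Cfd 2 genes were higher.

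Interferon-stimulated, MHC and acute phase genes had more members lower than higher. Of 42 interferon-stimulated genes 18 fell and none rose, 39 had a negative difference and the median was -0.48. The median stayed -0.48 with scan day in the fit, which cannot move it when each day holds as many KO as WT samples. It was -0.19 and -0.77 within scan days 1 and 2 and -0.02, -0.04, -0.92 and -0.67 on the 4 slides. Dhx58, a cytosolic RNA sensor, fell by 1.36 (adjusted p = 0.000413), Xaf1 by 0.99 and Ifi44 by 0.94, all with overlap. The MHC genes had 11 of 29 lower and none higher (median -0.13). Without KO replicate 5 or 6 the lower genes were 7, and without KO replicate 2 there were 4 higher ones. H2-Q5 fell by 0.93 (adjusted p = 5.61e-06), with separate groups. Of 47 proteasome genes 10 fell and 1 rose (median -0.09, 23.4% called, near the 23.9% of all genes), with 5 lower genes without the 3 arrays highest in Cfd.
Acute phase genes, the plasma proteins that hepatocytes raise in inflammation, had 14 of 26 lower and 2 higher, with a median of -0.41. Fgl1, a secreted fibrinogen-like protein, fell by 1.62 (adjusted p = 0.000494) and Orm2, an acid glycoprotein, by 1.15 (adjusted p = 0.000305), without overlap. Saa2, a serum amyloid A gene, read 12.09, 13.57 and 13.88 in KO mice and 13.06, 16.20 and 17.88 in WT littermates (difference -2.40, adjusted p = 0.0115). Without WT replicates 2, 7 and 8 it differed by -2.05 (adjusted p = 0.0511). The WT range was wide, and the groups overlapped. Without the 3 arrays highest in Cfd the acute phase list had 5 lower genes, and Saa2 differed by -1.90 (adjusted p = 0.0818). Complement had 3 of 33 genes higher and 5 lower (24.2% called, near the 23.9% of all genes). It had 5 higher genes without KO replicate 7 or WT replicate 6. Without the 3 arrays highest in Cfd or without WT replicates 2, 7 and 8 it had 3 lower ones. Coagulation had 4 of 35 higher and 9 lower, and both lists had a median of -0.05. In the coagulation list Tfpi2, a protease inhibitor, fell by 1.04 (adjusted p = 1.51e-06).
Of 9 NKG2D ligand and Clec2 genes, which killer lymphocytes read on the cell surface, 5 rose and none fell (median 1.25). Besides Clec2h they were led by Raet1a at 1.70, Raet1e at 1.65 and Clec2d at 1.25, all with overlap. The transcripts of Raet1 genes are alike, so their probes may not tell them apart.

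Protein folding genes were higher in part. The unfolded protein response list had 12 of 35 genes higher and 2 lower (median 0.27). Ddit3, the stress factor CHOP, rose by 1.84 (adjusted p = 4.62e-05) and Herpud1, a protein of ER-associated degradation, by 1.37, both with separate groups. Of 24 heat shock genes 7 rose and none fell (median 0.12), with Dnajb1 at 0.72 and overlap. Immediate early genes had 5 of 20 higher and 3 lower, and 8 higher without KO replicate 6. Atf3 rose by 1.76 and Btg2 by 1.23, while Dusp1, a MAP kinase phosphatase, fell by 1.55, all with overlap. The glucocorticoid and metallothionein list had 1 of 18 genes higher and 3 lower (22.2% called, near the 23.9% of all genes). Its member Gadd45g, a growth arrest gene, fell by 3.05 (adjusted p = 0.000286), with overlap.
Histone genes had 24 of 48 higher and 1 lower, with a median of 0.40, and in 13 every KO mouse lay above every WT sample. Hist2h3c2 rose by 1.39 and Hist2h3c1 by 1.23, and Hist1h2an read 13.76, 13.88 and 13.97 in KO mice against 12.89, 13.18 and 13.31 (difference 0.70, adjusted p = 3.05e-06). Histone genes share much of their sequence, so their probes are not independent. Of 40 cell cycle genes 10 rose and 8 fell. The median of 0.08 turned negative on 3 of 4 slides and within scan day 2 (-0.04). Besides Rrm2 the falls included Hmmr, a spindle protein, at -1.87 and Cdkn1a, the inhibitor p21, at -1.43 with overlap, and the increases E2f8 at 1.17 and Birc5, the survivin gene, at 1.13 with overlap. Cdkn1a did not pass when all 4 groups were fitted together (adjusted p = 0.0697). Tubulins and kinesins had 9 of 45 genes lower and 2 higher (24.4% called, near the 23.9% of all genes), among them Tubb2a at -1.15 and Tuba8 at 1.54. The number lower was 5 without the 3 arrays highest in Cfd and the number higher was 4 without KO replicate 7. Among cytosolic ribosomal proteins 5 of 80 rose and 1 fell, among mitochondrial ones 4 of 77 rose and 8 fell, and the signs of both medians (0.03 and 0.01) depend on the scaling. Without any 1 of KO replicates 1, 2, 4, 5, 6 and 7 and WT replicates 2, 3, 5 and 6, 2 or 3 cytosolic ribosomal proteins rose, and 2 without the 3 arrays highest in Cfd or without WT replicates 2, 7 and 8.
Secreted regulators moved both ways, with 6 of 28 hepatokine genes higher and 5 lower. Gdf15, a stress-induced hormone, rose by 1.46 (adjusted p = 0.0011) and Enho, the adropin gene, by 1.08, while Inhba, the activin A subunit, fell by 2.13 (adjusted p = 1.02e-06). The insulin, glucagon and IGF list had 9 of 36 genes higher and 3 lower (median 0.13), and 5 lower without KO replicate 8 or WT replicate 6. Igf1 rose by 0.38 (adjusted p = 0.000517), Igfbp5 by 1.01 and Trib1 by 0.80, the last 2 with overlap. Of 24 iron genes 4 rose and 2 fell (25% called, near the 23.9% of all genes). Hamp and Hamp2, the hepcidin genes, rose by 0.94 and 1.71 with overlap. Of 24 zinc and copper carriers 7 fell and 1 rose (median -0.08), led by Slc30a10 at -1.83 (adjusted p = 1.54e-08), a manganese exporter. Mitochondrial carriers had 9 of 45 higher and 7 lower, with Slc25a47 at -1.74 (adjusted p = 9.82e-08) and Slc25a48 at 1.31. Among serpins 7 of 40 rose and 4 fell, and Serpina7, the thyroxine-binding globulin, rose by 1.53 with overlap. The number lower was 2 without KO replicate 7, WT replicate 4 or WT replicate 6. Of 2419 probes named only by a position between genes, 162 rose (6.70%) and 150 fell (6.20%), below the shares over all genes.

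Markers of other cell types were summed on a linear scale in each sample. Kupffer cell and macrophage genes (0 of 22 called) summed to 32670.5 to 47060 in KO mice and 30558.9 to 50539.2 in WT littermates, with Lyz2 the most abundant. Neutrophil genes (0 of 10 called) spanned 39818.2 to 49062.4 and 42395.2 to 47162.8, and Csf3r made up 92.9% of this sum. Lymphocyte genes had 1 of 20 higher and 1 lower and ranged from 16564.7 to 27220.6 and from 16643.4 to 22633.6. Of this sum 84.1% was Cd4. Endothelial genes had 1 of 21 higher and ranged from 34660.7 to 42976.9 and from 32998.3 to 42398.4, led by Egfl7. In these 4 cell types the sums of the groups overlapped, and the neutrophil and lymphocyte sums mainly follow 1 gene each.
Stellate cell genes had 5 of 17 higher and none lower, with a median of 0.40. They summed to 53478.3 to 83794 in KO mice and 40730.2 to 57121.4 in WT littermates, Dcn being the most abundant, and Reln rose by 0.84 (adjusted p = 0.0023). Without KO replicate 4, WT replicate 3 or the 3 arrays highest in Cfd, 3 were higher. Cholangiocyte genes had 2 of 15 higher and 1 lower and summed to 14497.9 to 27890 and to 9630.96 to 17258.5, led by Tm4sf4 (0.64, adjusted p = 0.0142). Krt23 rose by 1.83 and Pkhd1 fell by 1.28. Adipocyte genes had 2 of 10 higher and none lower, with 7 of the 10 differences negative and a median of -0.08. They summed to 158457 to 205878 in KO mice and 78956.7 to 133809 in WT littermates, without overlap. Car3, which hepatocytes also express, made up 97.1% of this sum and rose by 0.79, and Adrb3 rose by 1.48 (adjusted p = 2.00e-06). Exocrine pancreas genes (0 of 13 called) summed to 15306.2 to 36606 and 19306.5 to 40882.1, and Cela1 made up 78.6% of this sum. Red blood cell genes had 1 of 6 higher and ranged from 179656 to 394206 and from 223129 to 337031, led by Hba-a1. The part of these cell types in the results above was not tested. The counts of genes called without the 3 WT arrays highest in pancreas transcripts were 2425 higher and 2716 lower, and without the 3 arrays highest in Cfd 2365 and 2595.

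The series used 15 slides and 2 scan days, and both groups were present on either day. With scan day in the fit 2820 genes rose and 3012 fell. Within day 1 the counts were 1528 and 1744, within day 2 they were 484 and 822, and with slide as a fixed term, which leaves 4 slides that hold both groups, 550 and 866. With slide as a random term they were 3399 and 3409. Both slide fits used 15 arrays, with WT replicates 7 and 8 as 2 samples, which alone gives 3049 and 3154. On the single slides with both groups 98.7%, 90.8%, 96.8% and 90.7% of the genes that rose had a positive difference, and 98.3%, 92.4%, 97.1% and 93.9% of those that fell a negative one. Over all genes 49.3% to 52.8% of the differences on these slides were positive. The called genes were chosen with the same arrays, so their shares are largely set by the choice. Among the leading genes, Osbpl3 (2.12, adjusted p = 0.0602) and Cyp2g1 (1.69, adjusted p = 0.0861) did not pass with slide as a fixed term. Within scan day 2 Cyp2g1 (1.32, adjusted p = 0.0783), Cib3 (2.93, adjusted p = 0.0522) and Pcp4l1 (1.94, adjusted p = 0.0531) did not pass. Of 198 named genes 180 had the same direction on all 4 slides and 18 the opposite direction on 1. The 18 were Ugp2, Gys2, Agpat9, Apoa4, Cd36, Cyp7a1, Slco1a4, Por, Ahr, Aldh18a1, Hamp, Hamp2, Dusp1, Igfbp5, Raet1a, Raet1e, Tm4sf4 and Arrdc3. Most named genes were chosen because they passed in a fit with the same arrays, so this tally is largely set by the choice. Of 197 named genes other than Mlxipl, 57 did not pass with slide as a fixed term, 23 within scan day 1 and 61 within scan day 2, and none changed direction. Genes that lost their call in these fits are not listed here unless stated. Counts of up to 3 genes in a list changed by at most 2 genes when single samples were left out, except where stated.
The number of higher genes in a list moved by over 1.5 times in 2 of 95 lists with scan day in the fit and in 13 with slide as a random term. It moved in 77 with slide as a fixed term and in 76 within scan day 2, where fewer samples are compared. The median of each list was followed by 9 values with or within slides and scan days. The value with scan day in the fit equals the main one by design, as each day held as many KO as WT samples. It is therefore no separate check. All 9 values with or within slides and scan days had the same sign for lists including ChREBP targets (-2.39, -1.92, -1.75 and -2.19 on the 4 slides), fatty acid synthesis, the pentose phosphate pathway, beta-oxidation, PPARα targets, the clock outputs, P450 families 1 to 3, complexes I to V, histones, interferon-stimulated genes, acute phase genes and female-biased genes. Of the 9 values 1 had the other sign for NKG2D ligands and Clec2, pericentral, periportal, unfolded protein response, proteasome, immediate early, aldo-keto reductase, glutathione S-transferase, flavin monooxygenase, complement, glycogen, cholangiocyte, exocrine pancreas, matrix, methionine and MLX network genes. Medians more than 1.5 times larger within scan day 1 than within day 2 (both given) included those of beta-oxidation (0.34 and 0.18), acute phase genes (-0.52 and -0.31), P450 families 1 to 3 (0.49 and 0.28), P450 family 4 (0.32 and 0.14), UDP-glucuronosyltransferases (0.43 and 0.03), glutathione S-transferases (0.32 and 0.14), aldo-keto reductases (0.35 and 0.10), flavin monooxygenases (0.50 and 0.22), hydroxysteroid dehydrogenases (0.43 and 0.16), organic anion and cation carriers (0.38 and 0.09), peroxisome genes (0.16 and 0.03), clock outputs (0.66 and 0.38), nuclear receptors (0.11 and 0.04), histones (0.49 and 0.18), pericentral genes (0.61 and 0.25) and stellate cell genes (0.54 and 0.22). Medians larger within day 2 to that extent included those of sulfotransferases (0.16 and 0.59), glycogen genes (-0.01 and -0.15), MHC genes (-0.07 and -0.28), unfolded protein response genes (0.13 and 0.43) and immediate early genes (0.13 and 0.60). The sign differed between the days for lists including coagulation (-0.14 and 0.06), urea cycle (0.15 and -0.03), glycolysis and pyruvate (0.04 and -0.02), TCA cycle (0.04 and -0.02), male-biased liver genes (0.25 and -0.20) and Kupffer cell and macrophage genes (0.29 and -0.18).
The same lists were followed mouse by mouse, as the median over members of the level minus the WT mean. For ChREBP targets this was -2.51 to -1.94 in KO mice (median -2.02) and -0.52 to 0.48 in WT samples (median -0.02). The pentose phosphate pathway, fatty acid synthesis, proteasome and aminoacyl-tRNA synthetases also had every KO mouse below every WT sample. Every KO mouse lay above every WT sample for bile acids, beta-oxidation, clock outputs, complexes I, II and III, IV and V, nuclear receptors and female-biased genes. In the other 81 lists the groups overlapped. Among these were PPARα targets (lowest KO mouse 0.19, highest WT sample 0.32), P450 families 1 to 3 (0.09 and 0.12) and histones (0.21 and 0.24).

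**Figure D4:**
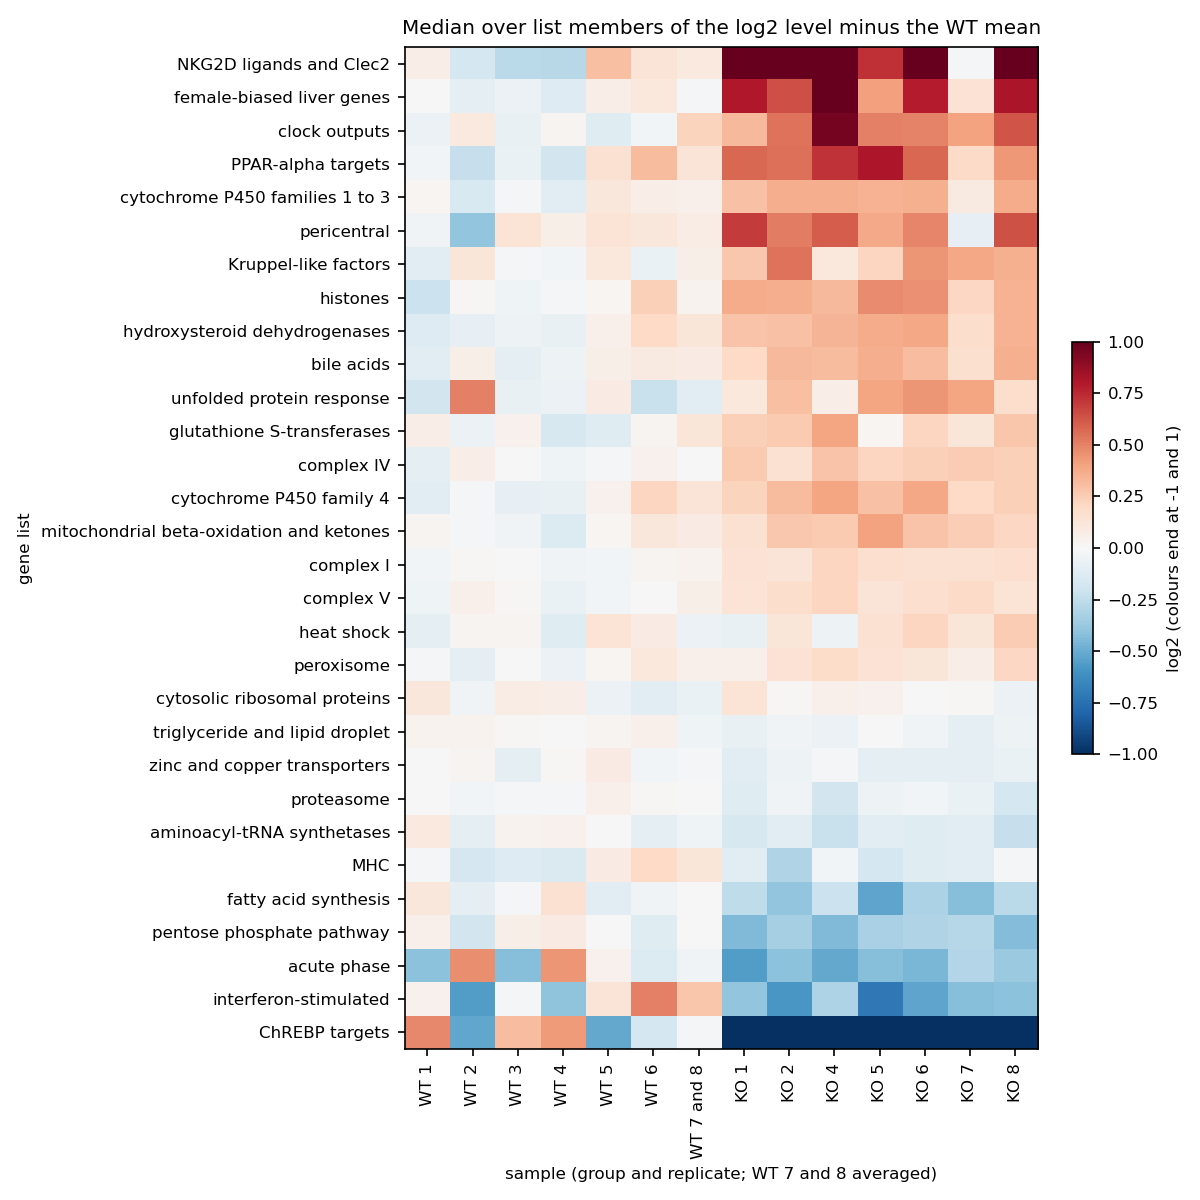
Median over the members of each of 30 gene lists of the log2 level minus the WT mean, in each sample (7 WT, then 7 total ChREBP-KO), on a colour scale that ends at -1 and 1. ChREBP targets are below the WT samples in every KO mouse, and acute phase and interferon-stimulated genes vary between samples of the same group.

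Promoter sequences were searched because ChREBP and MLX bind paired E-boxes and the targets moved together. The window was the 250 bases before each transcription start in RefSeq (build GRCm38.p6), and the motifs were the E-box CACGTG and a pair of CACGNG and CNCGTG 5 bases apart, both of which read the same on either strand. Of 32851 windows 1978 (6.02%) held CACGTG and 13 (0.0396%) the pair. By symbol, accession or synonym 13696 of the genes tested matched a window. CACGTG was found in 210 of 1753 matched higher genes, in 190 of 1873 lower ones and in 812 of 10070 genes not called, beside 8.85% of all matched genes. The pair was found in 5 matched genes, and all 5 fell. They were Pklr, Fam124a (-1.67, adjusted p = 0.00293, with overlap), Irak1bp1 (-1.18, adjusted p = 3.78e-05), A430005L14Rik (-0.31) and C030039L03Rik (-0.28), the last 4 of which were chosen after their values were seen. Of the 27 ChREBP targets 22 matched, 3 with CACGTG and 1 with the pair.
The windows with the pair in the genes that fell most are shown with the motif in capitals, together with that of Khk, whose capitals mark CACGTG. Pklr is at chr3:89136373-89136622, Fam124a at chr14:62555487-62555736, Irak1bp1 at chr9:82829556-82829805 and Khk at chr5:30921309-30921558, all on the plus strand. The capitals start 170 bases before the transcription start in Pklr, 88 in Fam124a, 22 in Irak1bp1 and 71 in Khk. A match is a description of the letters and not a binding site.
Pklr: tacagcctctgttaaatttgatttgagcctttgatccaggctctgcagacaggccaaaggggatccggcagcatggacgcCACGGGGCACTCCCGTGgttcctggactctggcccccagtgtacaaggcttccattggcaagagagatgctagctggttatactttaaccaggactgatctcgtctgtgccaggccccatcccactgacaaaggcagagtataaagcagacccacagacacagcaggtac
Fam124a: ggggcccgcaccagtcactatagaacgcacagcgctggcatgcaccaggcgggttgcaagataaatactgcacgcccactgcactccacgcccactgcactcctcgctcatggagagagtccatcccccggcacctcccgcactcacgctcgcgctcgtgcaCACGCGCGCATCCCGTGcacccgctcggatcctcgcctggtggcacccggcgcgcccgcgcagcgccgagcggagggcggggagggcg
Irak1bp1: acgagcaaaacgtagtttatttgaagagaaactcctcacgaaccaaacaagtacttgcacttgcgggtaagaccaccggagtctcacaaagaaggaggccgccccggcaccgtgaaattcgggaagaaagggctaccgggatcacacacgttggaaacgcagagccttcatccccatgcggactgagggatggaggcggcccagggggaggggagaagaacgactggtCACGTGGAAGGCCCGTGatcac
Khk: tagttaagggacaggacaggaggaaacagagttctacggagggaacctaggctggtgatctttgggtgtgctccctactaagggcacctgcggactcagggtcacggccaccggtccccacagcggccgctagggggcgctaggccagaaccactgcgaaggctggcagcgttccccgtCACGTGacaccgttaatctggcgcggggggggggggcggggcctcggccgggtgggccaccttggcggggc

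The effect of losing both isoforms was set against that of losing ChREBPβ alone, each against its own WT littermates. The difference of the effects was tested in 1 fit and passed for 3621 genes (15.1% of those tested), 1736 positive and 1885 negative. They included 1570 of the 2775 higher and 1780 of the 2952 lower genes. Of the first 5 decreases and first 5 increases of the leading genes, which were ranked among genes without overlap, 9 passed. All these genes were called or ranked by the effect in total ChREBP-KO mice. That effect is part of the difference tested, so these counts are partly set by the choice. Rgs16 changed by -6.37 in total ChREBP-KO mice and by -0.27 in mice lacking ChREBPβ (difference -6.10, adjusted p = 3.25e-06). G6pc changed by -4.72 and 0.03 (difference -4.75, adjusted p = 2.20e-05). Clec2h changed by 3.73 and 0.35 (difference 3.38, adjusted p = 0.000697). Dbp changed by 3.28 and 0.60, and its difference of 2.68 did not pass (adjusted p = 0.223). Dbp ranged from 8.52 to 14.49 in mice lacking ChREBPβ and from 8.21 to 15.28 in their WT littermates.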

How the data were processed

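Liver RNA was read on 15 Agilent 1-colour mouse 60K arrays, by the labels 1 per mouse. The intensity of each spot was extracted by the authors with the scanner software as median pixel values. The deposited table holds log2 values (the base was read from the data, which follow log2 of the scanner signal) that the authors filtered by spot quality, quantile normalized and summarised as the median of replicated probes, with 36057 probes and array medians of 7.50 to 7.51. KO and WT were compared with limma 3.58.1 in R 4.3.3 over all probes, with moderated t-tests adjusted by Benjamini-Hochberg at 0.05. Each gene was represented by its brightest probe, the one with the highest mean over the 15 arrays. WT replicates 7 and 8 were averaged and counted as 1 sample, a departure from the planned 8, and whether they hold RNA of 1 mouse was not settled. Exact permutation tests covered all 3432 assignments of samples. Promoters were searched in R, and figures used Python 3.11, numpy 2.4.6 and matplotlib 3.10.9.
Named were Mlxipl, the 15 symbol-named genes with the lowest and the 15 with the highest differences that passed, did not overlap between groups and were well above background in at least 4 arrays of the brighter group and 1 of the dimmer, up to 6 bounds per direction, and members of 95 gene lists, mainly those that passed with large changes. Members and lists were chosen with earlier results of these data known. The difference between the lines was tested as an interaction over all 31 arrays.
Alternatives were other scalings, background corrections and filters, slide, scan day and replicate number as blocks, exact Mann-Whitney tests, a fold threshold and leaving out arrays. A further 3 were chosen after seeing the data, with WT 7 and 8 kept apart, without WT 2, 7 and 8 and without KO 6, WT 2 and WT 5. No gene set test was run. Single-gene results of some list members are not reported here.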

Additional observations from a re-analysis of the deposited data

Results flagged for a closer look

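In each group of the 198 genes examined, the lowest or highest log2 level was compared with the gap to the next sample and the range of the group. Of 396 groups 31 had a sample far from the others, 14 in KO and 17 in WT, where chance gives about 1 in 20 groups. In KO replicate 2 the lowest value of its group stood far from the next for Mlxipl (13.90). In KO replicate 5 the highest value of its group stood far from the next for Jchain (10.77) and Ppard (8.78). In KO replicate 5 the lowest value of its group stood far from the next for Bhlhe40 (9.47), Scd1 (10.75) and Ttc25 (4.46). In KO replicate 6 the highest value of its group stood far from the next for Fabp5 (13.03) and Plcxd1 (5.77). In KO replicate 7 the highest value of its group stood far from the next for Apoa4 (15.79) and Aspg (14.37). In KO replicate 7 the lowest value of its group stood far from the next for Cyp2e1 (18.05), Gpd2 (8.67) and Nr1i3 (10.57). In KO replicate 8 the highest value of its group stood far from the next for Gadd45g (13.69). In WT replicate 2 the highest value of its group stood far from the next for Atf3 (9.33), Birc5 (7.62), Btg2 (10.44), Esr1 (11.08), Por (13.73) and Slco1a4 (9.52). In WT replicate 2 the lowest value of its group stood far from the next for Cyp1a2 (9.80), Cyp2d40 (14.32), Cyp8b1 (9.30), Gpd2 (10.29), Ndufa8 (13.12), Pbx4 (4.66), Serpina12 (4.86) and Slc2a2 (11.04). In WT replicate 4 the lowest value of its group stood far from the next for Acadm (14.78) and Vldlr (5.88). In WT replicate 6 the lowest value of its group stood far from the next for Tfpi2 (9.76). WT replicate 2 held 14 of the 31, and KO replicates 5 and 7 held 5 each.
The difference between the effects in total ChREBP-KO mice and in mice lacking ChREBPβ alone was tested for 23968 genes. It passed for 3621 of them (15.1%). Followed here are 10 leading genes, chosen for their effect in total ChREBP-KO mice, which is part of that difference. Of these 9 passed, with log2 differences of Clec2h (3.38), Tmeff2 (3.78), Cib3 (3.10), Pcp4l1 (2.31), Rgs16 (-6.10), Pnpla5 (-5.55), Atp2b2 (-4.86), G6pc (-4.75) and Thrsp (-4.80). Pnpla5 was well above background in 3 of 7 KO mice, so the size of its value depends on the background. The cause of these differences was not tested.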

How the results depend on the processing

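The counts of 2775 higher and 2952 lower genes stayed within 1.5 times under other probe filters, other scalings and background corrections of the scanner signal, with all 4 groups in 1 fit, slide as a random term, scan day in the fit, a trended robust variance and exact Mann-Whitney tests adjusted over all genes. The lowest of these counts were 2240 and 2441. They moved to 550 and 866 with slide as a fixed term over 15 arrays (WT replicates 7 and 8 apart), to 1528 and 1744 within scan day 1, to 484 and 822 within scan day 2 and to 647 and 847 when a change of at least 1.5-fold was also asked, which lowers the count of line differences from 3621 to 1337. Leaving out 1 array at a time gave 2249 to 2754 higher genes, 2522 to 3017 lower genes and 3091 to 3827 line differences. Mlxipl differed by -1.19 to -1.11 when 1 array was left out and by -1.30 to -0.96 over the other settings, and its adjusted p was at most 0.00716. With WT replicates 7 and 8 as 2 samples 3049 genes rose and 3154 fell, a setting chosen after seeing the data. So were the fits without the 3 WT arrays highest in pancreas transcripts among WT (2425 and 2716) and without the 3 arrays highest in Cfd, KO replicate 6 and WT replicates 2 and 5 (2365 and 2595). Of 197 named genes 14 did not pass in adjusted Mann-Whitney tests and at most 5 in any fit without some arrays, and none reversed. The median of all genes moved by at most 0.02 under the scalings. Within gene lists the number of higher genes moved by over 1.5 times in 77 of 95 lists with slide as a fixed term, 76 within scan day 2, 35 within scan day 1, 20 with all 4 groups in 1 fit, 13 with slide as a random term, 2 with scan day in the fit and 16 under each scaling to the 75th percentile, and the number of lower genes in 52, 49, 39, 6, 4, 1, 2 (processed signal) and 5 (median signal) lists. When a change of at least 1.5-fold was also asked, the higher genes moved in 59 lists and the lower ones in 40. These numbers were 21 and 13 with adjusted Mann-Whitney tests and 17 and 18 without the 3 arrays highest in Cfd. Without a filter on dim probes they were 13 and 4. The cause of the moved counts was not tested.
KO and WT samples share replicate numbers. With a replicate block the counts were 1676 and 1796, and the number of higher genes moved in 35 of 95 lists and that of lower genes in 17. Correlations of samples with the same number ran from -0.23 to 0.28, 2 of 7 were over 0.1 and 1 of 7 was best with its own number, so the numbers were not treated as paired.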

Other observations

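Bright probes without a gene symbol held a group of even decreases. Of 391 such names with a mean log2 level over 14, 67 fell and 51 rose. Differences of 60 of the lower ones lay between -0.88 and -0.54, all 60 without overlap between KO and WT samples, and they lay on 18 chromosomes. Of 1103 symbol-named genes as bright, 22 lay between -0.9 and -0.5. The 7 probes of Gapdh, the glycolytic enzyme, gave -0.78 to -0.46. Whether these probes share sequence with Gapdh was not analysed here.
Among 7804 genes with several probes, 950 had all probes called in 1 direction, 2329 had some called and some not, and 82 had probes called in opposite directions. Cfd, an adipocyte transcript, ranged from 4.71 to 12.94 in KO mice and from 4.59 to 11.44 in WT littermates and was high in KO replicate 6 and WT replicates 2 and 5. Among WT arrays the summed exocrine pancreas transcripts, 78.6% of them Cela1 over all samples, were highest in replicates 2, 7 and 8. KO replicates 4, 6 and 8 stood above WT replicates 7 and 8 in these transcripts. Their source was not tested.
Each gene was read in whole liver at 1 time point. Cell types were followed only by their markers in whole liver, and other times and protein levels were not analysed here. The mice came from several litters, which could not be separated.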
